A study of Mus musculus with 78 samples.

Results

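The 10 genes described here set whether a cell lives or dies after an inflammatory signal: the death receptor gene Fas, the receptor complex genes Ripk1, Casp8 and Cflar, the inhibitor of apoptosis genes Birc2 and Birc3, and the BCL2 family genes Bcl2, Bcl2l1, Mcl1 and Bcl2l11. They were taken by symbol from the 52459 named genes of the mRNA count table, and all 10 were found. The tissue was cartilage engineered in culture from mouse induced pluripotent stem cells that had been turned into chondrocytes. Untreated controls were collected at 0, 4, 12, 24 and 72 h, cartilage given interleukin-1 beta (IL-1beta, 1 ng/mL) at 4, 12, 24 and 72 h, and cartilage given tumor necrosis factor alpha (TNF-alpha, 20 ng/mL) at the same times. Each of these 13 groups had 3 mRNA libraries, lettered a to c, and no strain, genotype or age is given in the labels used here. The column of control 0 h replicate b was left out, so that 38 libraries were used.

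Both cytokines bind receptors that assemble complexes on the cell membrane. The kinase RIPK1 and the ubiquitin ligases cIAP1 and cIAP2 (encoded by Birc2 and Birc3) work in the TNF receptor complex, where ubiquitin chains steer the signal to NF-kappaB. Without that brake RIPK1 can join FADD and caspase-8 (Casp8) in a death complex, and cFLIP (Cflar) holds caspase-8 in check there and below FAS. A separate route runs through mitochondria, where BCL2, BCL-XL (Bcl2l1) and MCL1 keep the membrane intact and the BH3-only protein BIM (Bcl2l11) binds and counters them. Chondrocytes are long-lived cells with little turnover, and FAS and TNF receptor signalling have long been studied in cartilage damage.

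The 38 libraries held 11163263 to 68655350 counts, and 99.905% of the counts lay in the 18857 genes that passed the filter on low counts, all 10 genes among them. Levels are given as CPM, counts scaled to the size of each library, after TMM scaling. The column left out held 220180 counts, gave Col2a1 10 counts and correlated with no other library above 0.189, whereas libraries of 1 group correlated at 0.996 or more. Libraries fell into 8 (the 0 h and 4 h controls and IL-1beta at 4 h) and 30 (all others) that stood apart: 34 genes were fully separated between these sets, led by the predicted gene Gm10800 at 0.476 to 5.22 against 363 to 2068 CPM. None of the 10 genes was separated in that way, but TNF-alpha at 4 h lies on the other side of this parting from its control and from IL-1beta at 4 h, and there the parting and the treatment cannot be told apart. Chondrocyte markers were present in every library, and their summed level at 72 h was 79890 to 105679 CPM in controls, 37189 to 43809 with TNF-alpha and 16977 to 18312 with IL-1beta. The 8 leukocyte and macrophage markers were led by Cd68 (7.90 to 54.4 CPM) and Lyz2 (1.96 to 26.0 CPM), whereas Ptprc reached 0.541 CPM at most and Cd3e was at 0 in 25 libraries. Their sum was 44.3 to 51.5 CPM with IL-1beta at 24 h against 22.4 to 33.6 in controls, and at 72 h 48.7 to 70.2 with TNF-alpha and 30.9 to 37.6 with IL-1beta against 26.3 to 29.1. The 4 adipocyte markers summed at 72 h to 0.812 to 1.79 CPM with TNF-alpha, 25.8 to 30.3 with IL-1beta and 9.69 to 24.3 in controls. The mitochondrial share of counts at 24 h was 0.355% to 0.384% in controls, below all IL-1beta libraries (0.551% to 0.618%) and all TNF-alpha libraries (0.550% to 0.564%), and likewise at 72 h (controls 0.384% to 0.443%, IL-1beta 0.574% to 0.594%, TNF-alpha 0.568% to 0.610%). The part of these markers and of the mitochondrial share in the results below was not tested. In whole tissue, fewer cells of a type and less RNA per cell cannot be told apart.

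The promoters of the 4 genes whose levels moved furthest are shown first, as the stretch that lies before the outermost annotated start of the gene within the 250 bases upstream of the RefSeq start (build GRCm38.p6, 5' to 3'). Capitals mark a match to the AP-1 motif TGANTCA in Fas and to the FOXO motif GTAAACA in Bcl2l11.
Birc3 (chr9:7873206-7873420, minus strand): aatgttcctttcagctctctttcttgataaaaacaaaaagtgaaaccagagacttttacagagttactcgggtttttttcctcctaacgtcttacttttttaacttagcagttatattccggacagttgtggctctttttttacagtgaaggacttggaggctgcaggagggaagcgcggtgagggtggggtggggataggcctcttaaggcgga
Fas (chr19:34290409-34290646, plus strand): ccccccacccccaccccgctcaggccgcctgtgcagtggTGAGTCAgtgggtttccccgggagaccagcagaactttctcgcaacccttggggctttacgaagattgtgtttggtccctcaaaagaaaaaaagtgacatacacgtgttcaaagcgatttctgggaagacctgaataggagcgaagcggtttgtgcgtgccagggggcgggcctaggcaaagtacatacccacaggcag
Bcl2 (chr1:106714291-106714540, minus strand): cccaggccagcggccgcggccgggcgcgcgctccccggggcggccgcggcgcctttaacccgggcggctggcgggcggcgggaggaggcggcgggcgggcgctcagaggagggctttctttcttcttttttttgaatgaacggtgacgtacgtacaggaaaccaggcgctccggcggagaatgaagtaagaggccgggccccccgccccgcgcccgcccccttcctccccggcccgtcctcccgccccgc
Bcl2l11 (chr2:128125788-128126037, plus strand): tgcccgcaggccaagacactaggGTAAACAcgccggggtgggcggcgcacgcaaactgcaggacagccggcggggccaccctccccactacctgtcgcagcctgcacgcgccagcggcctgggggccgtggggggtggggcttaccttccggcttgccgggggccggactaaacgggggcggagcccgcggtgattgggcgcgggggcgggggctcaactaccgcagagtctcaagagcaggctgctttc
All 10 genes matched the RefSeq promoter table, with 15 starts in all, and 250 upstream bases of each were searched on both strands. The 10-letter kappaB consensus was found before 1 of the 15 starts, the second of 3 for Bcl2l1, as GGGGGTCTCC from position -242 to -233 relative to the start. The same search found it in 7.25% of 32841 promoters. The AP-1 motif was found before Fas alone, from position -211 to -205, against 6.75% of all promoters, and the FOXO motif before the first of 2 starts of Bcl2l11, from position -227 to -221, against 3.17%. Each of these matches lay before a different start. A match describes letters in a window, and no match says nothing of more distant sequence.

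Several of these genes are neighbours. On chromosome 9 Birc2 (7818226 to 7837131) and Birc3 (7847468 to 7873205) lie 10336 bases apart on the minus strand, and on chromosome 1 Cflar (58711311 to 58758884) lies 36348 bases before Casp8 (58795233 to 58847503) on the plus strand. The others are Bcl2 on chromosome 1 (106538176 to 106714290), Bcl2l1 and Bcl2l11 on chromosome 2 (152758732 to 152833803 and 128126038 to 128162547), Mcl1 on chromosome 3 (95656944 to 95663179), Ripk1 on chromosome 13 (34002225 to 34035170) and Fas on chromosome 19 (34290647 to 34327775). Bcl2l1 overlaps Cox4i2 and Ripk1 overlaps Serpinb6a in the annotation, and since the strand setting of the counting is not given in the sources used here, reads shared by these neighbours could sit in either gene. Cox4i2 held 45.3% as many counts as Bcl2l1, and Serpinb6a 361% as many as Ripk1. Scaled by library totals, Cox4i2 ranged from 8.08 to 62.6 CPM over the libraries and Bcl2l1 from 40.1 to 92.9 CPM. The Bcl2 and Bcl2l11 loci overlap only genes of 2.87% of their counts or less.

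In the 14 control libraries Mcl1 was the most abundant of the 10 per length of transcript, with a median of 59.5 CPM per kb (range 50.9 to 70.3). Bcl2l1 followed at a median of 11.0 CPM per kb (10.2 to 17.2), then Birc2 at 8.58, Casp8 at 8.41, Cflar at 7.71, Ripk1 at 6.55, Fas at 5.74, Bcl2 at 3.64, Birc3 at 2.79 and Bcl2l11 at 1.38. Only the steps from Mcl1 to Bcl2l1 and from Birc3 to Bcl2l11 separated neighbours completely. All other neighbours in this order overlapped in their control ranges.

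**Figure D1:**
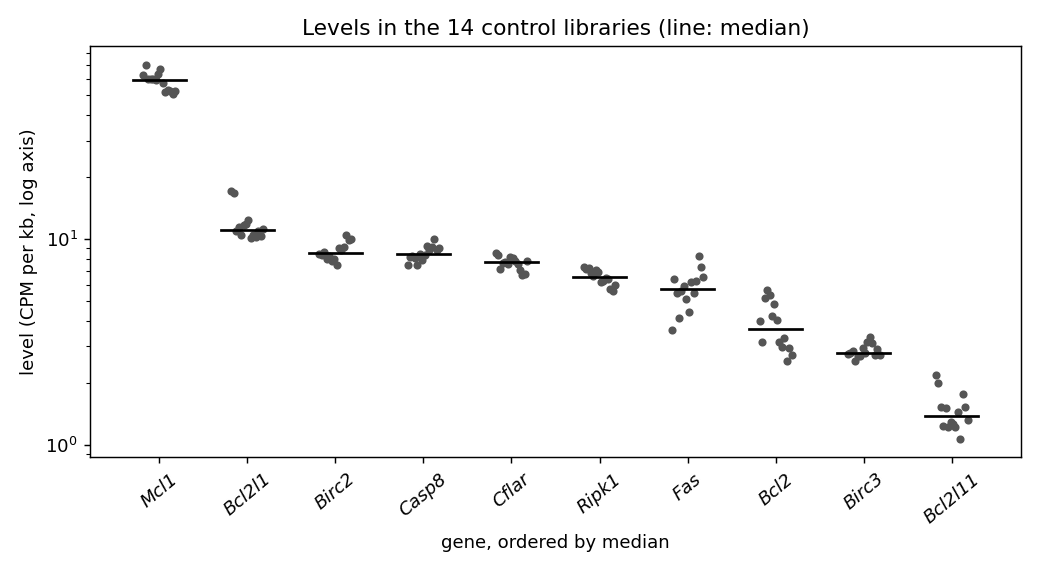
Level of each gene per kb of transcript in the 14 control libraries (points; the line is the median), on a log axis in CPM per kb. Mcl1 stands above the other genes, and Bcl2l11 is lowest at a median of 1.38.

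Each cytokine was then set against the time-matched control, so the 2 cytokines share their controls at each time. With IL-1beta 5 of the 10 genes were called at 4 h (adjusted p under 0.05), against 32.7% of all genes tested, and all 5 were higher (15.5% of all genes were called higher). At 12 h 6 were called, all higher, against 29.6% in either direction and 14.5% higher. At 24 h 8 rose and 1 fell, against 32.6%, 17.0% and 15.6% of all genes in either direction, higher and lower. At 72 h 6 rose and 2 fell, against 38.9%, 19.3% and 19.7%. With TNF-alpha 5 were higher and 1 lower at 4 h (21.5%, 10.9% and 10.6% of all genes), 6 rose at 12 h (28.4% called, 14.6% higher), 4 rose at 24 h (25.0% and 13.2%), and 4 rose at 72 h (36.0% and 17.8%). Calls at 72 h with TNF-alpha went from 4 to 8 of 10 when libraries were scaled by their totals, a scaling that moved the median of all genes there by 0.11 on the log2 scale and the share of called genes that were higher from 49.3% to 67.1%.

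**Figure D2:**
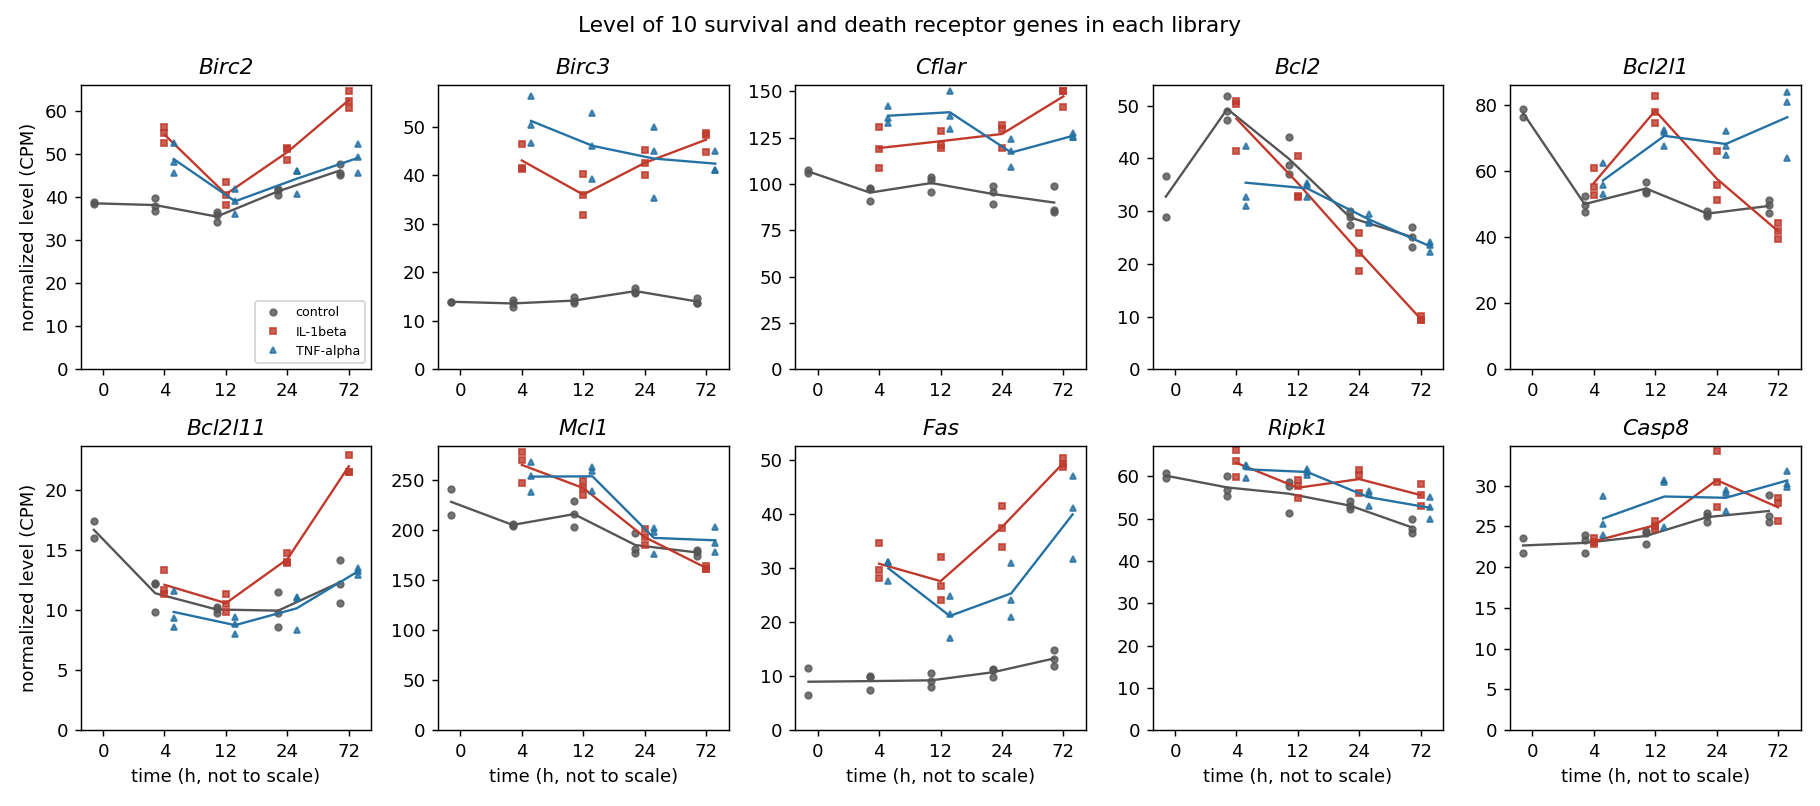
Level of each gene (CPM) against time in every library, with control libraries as circles, IL-1beta as squares and TNF-alpha as triangles, and lines through group means (time points are evenly spaced). For Birc3 and Fas the treated libraries lie above the controls of the same time, and Bcl2 with IL-1beta ends at 9.26 to 10.1 CPM at 72 h.

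**Figure D3:**
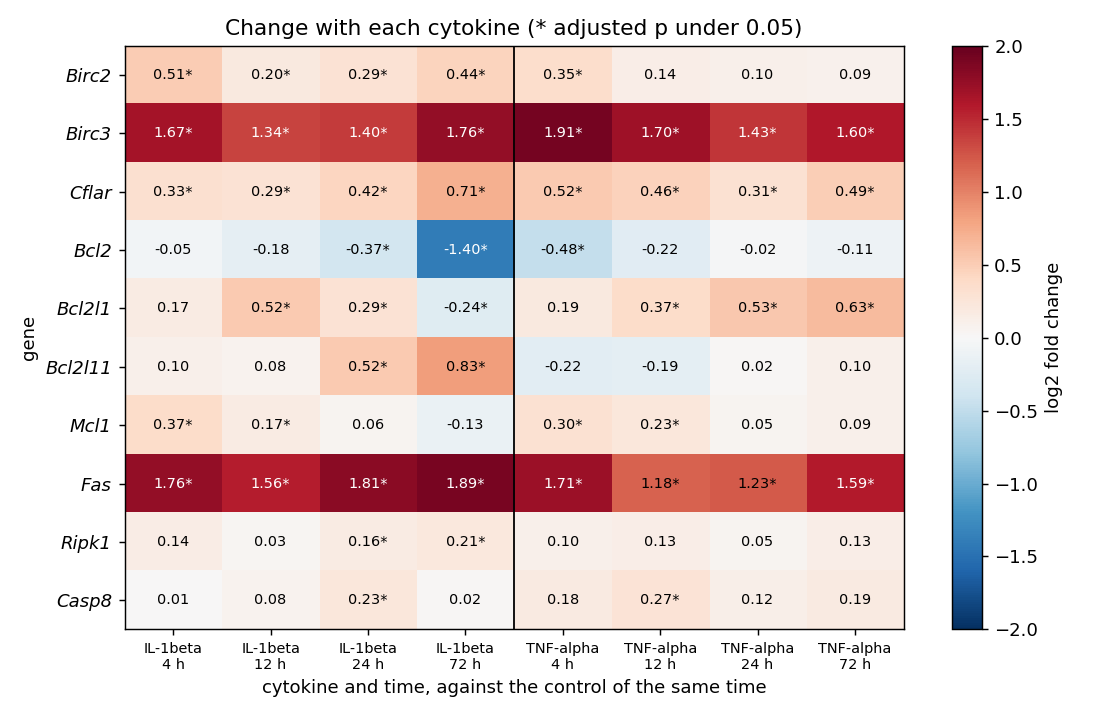
Log2 fold change of each gene (rows) with each cytokine at each time (columns), red for higher and blue for lower than the control of that time. Asterisks mark adjusted p under 0.05; Birc3, Cflar and Fas carry one in all 8 columns.

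Fas, the death receptor, rose in all 8 comparisons, and no treated library overlapped with a control of its time (of all genes 19.6%, 18.8%, 23.5% and 25.7% were higher without overlap with IL-1beta at 4, 12, 24 and 72 h, and 18.2%, 17.4%, 20.1% and 22.2% with TNF-alpha). The controls at 4 h had 9.82, 7.47 and 10.01 CPM, IL-1beta 28.3, 34.6 and 29.6 CPM, and TNF-alpha 31.2, 27.6 and 31.2 CPM. At 72 h the controls had 14.9, 13.2 and 11.8 CPM, IL-1beta 50.5, 48.8 and 49.3 CPM, and TNF-alpha 31.7, 47.1 and 41.2 CPM. At 12 h IL-1beta gave 32.1, 26.7 and 24.1 CPM and TNF-alpha 17.1, 24.8 and 21.6 CPM against 10.7, 9.16 and 7.93 in controls. The TNF-alpha libraries were more spread than the IL-1beta ones at 72 h. The log2 fold change was 1.76 at 4 h, 1.56 at 12 h, 1.81 at 24 h and 1.89 ± 0.16 (SE, n = 3 against 3) at 72 h with IL-1beta, and 1.71, 1.18, 1.23 and 1.59 with TNF-alpha, with adjusted p of at most 2.08e-06 in any of them. The ligand gene Fasl was not tested because too few counts were found.

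Ripk1, which carries the signal on both the survival and the death side, changed little. The control mean was 60.2 CPM at 0 h and 48.0 CPM at 72 h. With IL-1beta it was called only at 24 h (log2 0.16, adjusted p = 0.0277) and 72 h, where the libraries held 55.5, 53.1 and 58.2 CPM against 47.5, 46.6 and 49.9 CPM in controls (log2 0.21 ± 0.06, SE, n = 3 against 3). The 24 h call was lost without IL-1beta 24 h replicate a or b or without control 24 h replicate a or c. It was also lost with library totals and when only the libraries compared were fitted. Both calls were lost without the filter on low counts (at 72 h adjusted p = 0.069). With TNF-alpha no comparison passed the test (log2 0.05 to 0.13).

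Casp8, the initiator caspase of the death complex, passed the test once with each cytokine. It rose at 24 h with IL-1beta to 30.5, 34.2 and 27.4 CPM against 26.6, 25.5 and 26.3 CPM in controls, which is 0.23 ± 0.08 on the log2 scale (SE, n = 3 against 3, adjusted p = 0.0223). The call was lost when any of 3 single libraries was left out, with library totals and without the filter. It was also lost when only the libraries compared were fitted. Casp8 rose at 12 h with TNF-alpha to 30.7, 24.9 and 30.4 CPM against 24.5, 22.8 and 24.2 CPM (log2 0.27, adjusted p = 0.0107). That call was lost without TNF-alpha 12 h replicate a or c and when only the libraries compared were fitted. In both comparisons no treated library overlapped with the controls (23.5% and 17.4% of all genes were higher without overlap). Casp8 was higher without overlap in 6 of the 8 comparisons, so this did not set these 2 apart.

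Cflar, whose product cFLIP restrains caspase-8, rose in all 8 comparisons without overlap, by less than Fas. At 72 h the controls had 84.9, 85.9 and 99.2 CPM, TNF-alpha 127.5, 125.4 and 125.2 CPM, and IL-1beta 150.2, 141.6 and 150.2 CPM. At 72 h all IL-1beta libraries also lay above those with TNF-alpha. The share of all genes that did so was not counted. At that time 19.4% of all genes were called higher with IL-1beta than with TNF-alpha. At 4 h the controls had 90.8, 97.3 and 98.0 CPM, IL-1beta 130.5, 119.1 and 108.7 CPM, and TNF-alpha 132.9, 135.8 and 142.0 CPM. The log2 fold change with IL-1beta was 0.33, 0.29, 0.42 and 0.71 ± 0.07 (SE, n = 3 against 3) at 4, 12, 24 and 72 h, and with TNF-alpha 0.52, 0.46, 0.31 and 0.49.

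Birc3, which encodes cIAP2, rose in all 8 comparisons without overlap and stayed between 31.7 and 56.4 CPM in every treated library, while the controls held 12.8 to 16.8 CPM. At 4 h IL-1beta libraries had 41.2, 46.4 and 41.5 CPM and TNF-alpha libraries 56.4, 46.7 and 50.4 CPM, against 14.3, 12.8 and 13.6 CPM in controls. Log2 fold changes were 1.67, 1.34, 1.40 and 1.76 ± 0.11 (SE, n = 3 against 3, at 72 h) with IL-1beta at 4, 12, 24 and 72 h, and 1.91, 1.70, 1.43 and 1.60 with TNF-alpha. The neighbouring Birc2, which encodes cIAP1, moved less. It rose with IL-1beta at all 4 times, by 0.51 at 4 h (56.3, 52.6 and 54.9 CPM against 39.8, 36.8 and 38.02 in controls), 0.20 at 12 h, 0.29 at 24 h and 0.44 at 72 h on the log2 scale. At 72 h the libraries had 60.7, 64.6 and 62.5 CPM with IL-1beta, 45.7, 49.4 and 52.4 with TNF-alpha and 47.8, 45.2 and 45.6 in controls, so the TNF-alpha libraries overlapped with the controls. The 12 h call was lost without IL-1beta 12 h replicate b or control 12 h replicate c, without the filter, and when only the libraries compared were fitted. With TNF-alpha Birc2 was called at 4 h alone (log2 0.35), a comparison that the library parting crosses. Its log2 fold change was 0.09 to 0.14 from 12 to 72 h, short of the test. A difference of the TNF-alpha effect between the times was not called (adjusted p = 0.0782, test of treatment and time together).

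Bcl2, which keeps mitochondria intact, fell with IL-1beta late in the course. At 24 h the libraries had 22.1, 18.7 and 25.8 CPM against 28.9, 27.4 and 30.1 in controls, a log2 fold change of -0.37 ± 0.11 (SE, n = 3 against 3, adjusted p = 0.00733) that lost its call without IL-1beta 24 h replicate b. At 72 h they had 9.27, 10.1 and 9.26 CPM against 23.3, 27.0 and 25.1 in controls, with no overlap (25.5% of all genes were lower without overlap) and a log2 fold change of -1.40 ± 0.12 (adjusted p = 5.66e-12), the widest drop among the 10 genes. With TNF-alpha at 72 h the libraries had 23.6, 24.1 and 22.3 CPM, and the log2 fold change of -0.11 did not pass the test (95% interval -0.33 to 0.11). TNF-alpha lowered the gene at 4 h (log2 -0.48, adjusted p = 0.000897), but against the controls at 12 h, on the same side of the library parting, the value was -0.17 with an adjusted p of 0.253. The summed chondrocyte markers were also lowest with IL-1beta at 72 h, and their part in the result was not tested.

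Bcl2l1, which encodes BCL-XL, parted the cytokines over time. At 12 h it rose with IL-1beta (74.5, 77.9 and 82.7 CPM) and TNF-alpha (71.9, 72.6 and 67.7 CPM) against 53.5, 54.1 and 56.8 CPM in controls. At 72 h IL-1beta libraries had 39.4, 44.2 and 42.0 CPM, TNF-alpha libraries 84.0, 81.1 and 64.2 CPM, and controls 49.8, 47.3 and 51.4 CPM. All IL-1beta libraries were below the controls (25.5% of all genes were lower without overlap). All TNF-alpha libraries were above them (22.2% of all genes were higher without overlap). The log2 fold change with IL-1beta was 0.52 at 12 h, 0.29 at 24 h and -0.24 ± 0.08 (SE, n = 3 against 3, adjusted p = 0.0231) at 72 h. That last fall lost its call when any of 4 single libraries was left out, and the 24 h rise lost it without IL-1beta 24 h replicate b. With TNF-alpha it was 0.37 at 12 h, 0.53 at 24 h and 0.63 ± 0.08 at 72 h. The part of reads shared with Cox4i2 in these values was not tested.

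Mcl1, a short-lived mitochondrial guard, was called higher at 4 and 12 h with both cytokines. At 4 h the controls had 205.6, 203.8 and 204.9 CPM, IL-1beta 277.6, 269.8 and 246.5 CPM, and TNF-alpha 237.8, 253.3 and 267.6 CPM. The log2 fold change at 4 h was 0.37 with IL-1beta and 0.30 with TNF-alpha, and at 12 h 0.17 and 0.23. The library parting crosses the TNF-alpha comparison at 4 h. A difference of the TNF-alpha effect between the times was not called (adjusted p = 0.101, test of treatment and time together). The 12 h call with IL-1beta (adjusted p = 0.0458) was lost without any of 4 single libraries, without the filter and with the replicate letter as a block. It was also lost when only the libraries compared were fitted. At 72 h the libraries had 160.6, 164.3 and 160.8 CPM with IL-1beta, 203.0, 178.2 and 187.1 with TNF-alpha and 178.2, 173.8 and 179.8 in controls. All IL-1beta libraries were then below the controls (25.5% of all genes were lower without overlap). At 24 and 72 h, however, no comparison with control passed the test (log2 -0.13 to 0.09).

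Bcl2l11, which encodes BIM and opposes the 3 genes just described, rose late with IL-1beta and not with TNF-alpha. At 24 h IL-1beta libraries had 14.8, 13.95 and 14.04 CPM against 9.80, 11.5 and 8.58 in controls, and at 72 h 22.9, 21.5 and 21.6 CPM against 14.2, 12.2 and 10.6. The log2 fold change was 0.52 ± 0.12 (SE, n = 3 against 3) at 24 h and 0.83 ± 0.11 (adjusted p = 1.59e-07) at 72 h. With TNF-alpha the values at 72 h were 13.3, 13.5 and 12.9 CPM, within the control range, and no time passed the test (log2 -0.22 to 0.10).

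The direct comparison of the cytokines asked where the genes differed between them. IL-1beta was given at 1 ng/mL and TNF-alpha at 20 ng/mL, so cytokine and dose cannot be told apart here. At 4 h 2 of the 10 genes differed, against 12.4% of all genes (5.71% higher and 6.66% lower with IL-1beta): Bcl2 was higher with IL-1beta (log2 0.43, adjusted p = 0.00553; the libraries overlapped) and Cflar lower (log2 -0.20, adjusted p = 0.0497). The Cflar call was lost under 6 of the 7 other settings tried, and the library parting crosses this comparison. At 12 h 1 gene differed, against 10.6% (5.88% lower): Birc3 was lower with IL-1beta (log2 -0.36, adjusted p = 0.0171). That call was lost when any of 3 libraries was left out and when only the libraries compared were fitted. At 24 h 5 differed, against 20.1% (9.31% higher and 10.8% lower): Fas (0.57), Bcl2l11 (0.49) and Birc2 (0.19) were higher with IL-1beta, and Bcl2 (-0.35) and Bcl2l1 (-0.24) lower, on the log2 scale. At 24 h only the Bcl2l11 call held whichever library was left out. At 72 h 6 differed, against 39.8% of all genes (19.4% higher and 20.4% lower). Bcl2l11 (log2 0.73 ± 0.11), Birc2 (0.35) and Cflar (0.23) were higher with IL-1beta, and Bcl2 (-1.29 ± 0.12), Bcl2l1 (-0.87 ± 0.08) and Mcl1 (-0.23) lower, with SE and n = 3 against 3. With library totals the Cflar difference was 0.12 and its call was lost. The Bcl2 difference had an adjusted p of 3.11e-11 and a 95% interval of -1.53 to -1.05. Birc3 and Fas did not pass the test at 72 h (log2 0.16, 95% interval -0.04 to 0.35, and 0.30, 0.01 to 0.60).

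**Figure D4:**
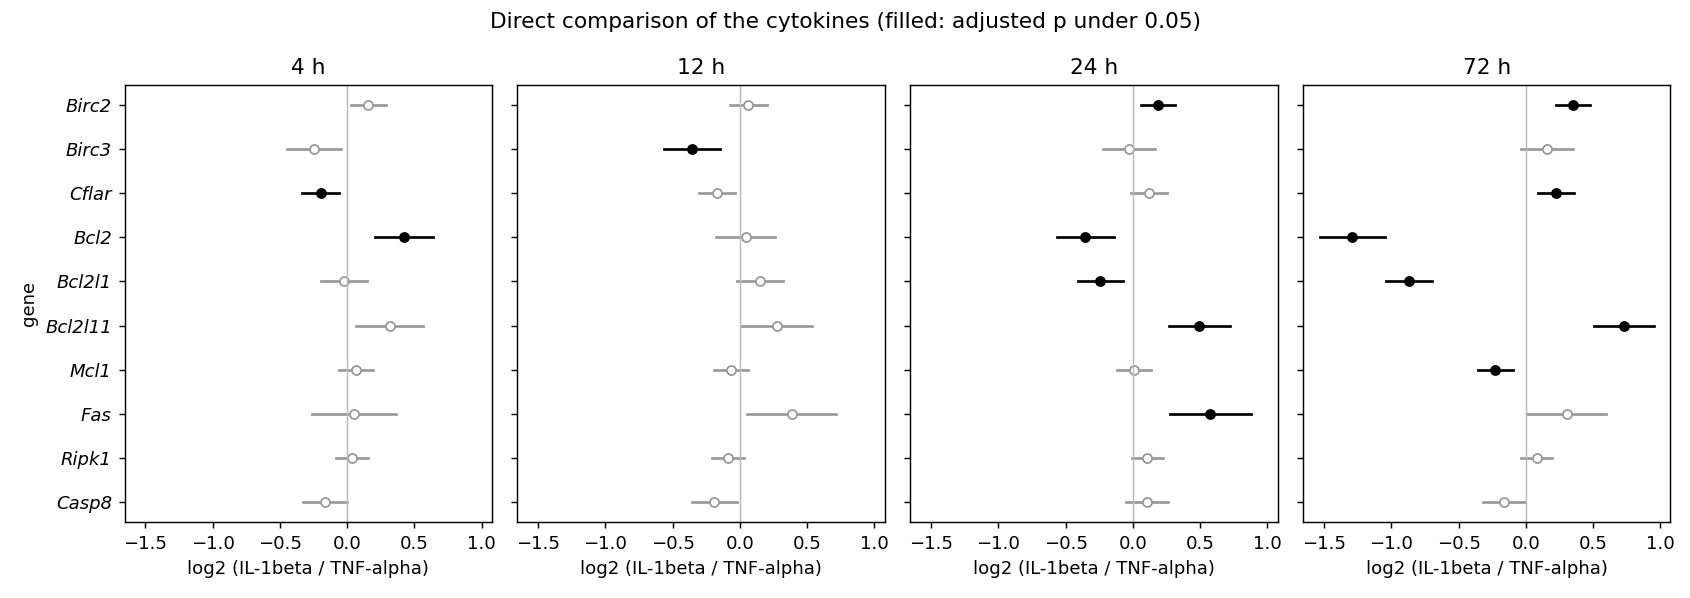
Log2 ratio of IL-1beta to TNF-alpha for each gene at 4, 12, 24 and 72 h, with 95% intervals; filled points have adjusted p under 0.05. At 72 h Bcl2 (-1.29) and Bcl2l1 (-0.87) lie to the left and Bcl2l11 (0.73) to the right.

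A test of whether each effect differed between the 4 times, in 1 model with treatment and time, called 6 of the 10 genes for IL-1beta against 38.7% of all genes. These were Bcl2 (adjusted p = 5.48e-08), Bcl2l1 (3.43e-05), Mcl1 (0.000218), Bcl2l11 (0.000499), Cflar (0.00163) and Birc2 (0.0206), whose log2 fold changes spanned 1.34, 0.76, 0.50, 0.75, 0.42 and 0.31 over the 4 times. For Fas and Birc3 the spans were 0.33 and 0.41 and the adjusted p 0.672 and 0.0561. For TNF-alpha 1 gene was called, against 19.2% of all genes: Bcl2l1 spanned 0.43 (adjusted p = 0.0278). Over 12, 24 and 72 h alone, without the time that the library parting touches, no gene of the 10 was called for TNF-alpha.

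In untreated cartilage the genes also moved with time. From 0 to 4 h 3 of the 10 were called, against 20.4% of all genes (10.2% in each direction): Bcl2 rose (36.6 and 28.9 to 47.3, 51.8 and 49.1 CPM, log2 0.59), and Bcl2l1 (78.8 and 76.5 to 49.9, 52.6 and 47.7 CPM, log2 -0.63) and Bcl2l11 (log2 -0.54) fell. The Bcl2 call was lost without control 0 h replicate c. From 12 to 24 h 3 were called, against 21.7% (10.2% higher and 11.5% lower): Birc2 rose by 0.22 and Bcl2 and Mcl1 fell by 0.47 and 0.22. The Birc2 call was lost without control 12 h replicate c and without the filter. The Mcl1 call was lost without control 12 h replicate c or control 24 h replicate b or c, without the filter, and with library totals, where the value was -0.096. From 12 to 72 h 6 were called, against 37.1% (18.7% higher and 18.3% lower). Fas (0.52), Birc2 (0.38) and Bcl2l11 (0.30) rose and Bcl2 (-0.67), Mcl1 (-0.28) and Ripk1 (-0.22) fell. The Bcl2l11 call (adjusted p = 0.0488) was lost when any of 5 of the 6 libraries was left out. It was also lost under 6 of the 7 other settings tried. The Fas call was lost without control 12 h replicate c or control 72 h replicate a. With library totals the Ripk1 value was -0.13 and its call was lost, as it was without the filter. The control range of Birc3 over all times, 12.8 to 16.8 CPM, was narrow beside its treated range.

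Over the 38 libraries, which differ in depth, treatment and time, the genes most like each of the 10 in log2 CPM were found among 12622 genes. An r over all of them holds differences between groups as well as those within groups. Ccl2 (r = 0.969), Tnip1 (0.969) and Arg2 (0.968) were most like Birc3, Gbp6 (0.958), Adamts9 (0.938) and Rrad (0.938) most like Fas, and Zfand5 (0.919), Nfkbia (0.906) and Plxnd1 (0.903) most like Cflar. For Bcl2 they were Fgf1 (0.967), Zfand2a (0.964) and Spsb4 (0.956), and for Mcl1 Tpm3 (0.944). The other genes had weaker partners, with a highest r of 0.861 (Ripk1 with Dlst), 0.857 (Bcl2l1 with Dock5), 0.855 (Birc2 with Pik3r1), 0.850 (Bcl2l11 with Fap) and 0.848 (Casp8 with Asah1). Among the 10 genes themselves Birc3 and Fas correlated at 0.911, Birc3 and Cflar at 0.885, and Bcl2 and Bcl2l11 at -0.672.

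Of 72 other genes of these pathways, in 7 lists, 63 were tested. The numbers that rose with IL-1beta were 20, 22, 29 and 17 at 4, 12, 24 and 72 h, and those that fell 3, 8, 3 and 8. The TNF-alpha numbers were 15, 26, 24 and 23 higher and 7, 8, 7 and 7 lower. The share of the list genes called at 4, 12, 24 and 72 h was 36.5%, 47.6%, 50.8% and 39.7% with IL-1beta, beside 32.7%, 29.6%, 32.6% and 38.9% of all genes, so that at 4 and 72 h it lay near that of all genes. With TNF-alpha it was 34.9%, 54.0%, 49.2% and 47.6%, beside 21.5%, 28.4%, 25.0% and 36.0%. The median log2 fold change of the list genes was 0.12, 0.09, 0.20 and 0.12 with IL-1beta and 0.03, 0.14, 0.14 and 0.15 with TNF-alpha, and that of all genes lay between -0.03 and 0.0034. Among the 24 genes of the receptor complex and its ubiquitin enzymes 9, 10, 15 and 9 rose with IL-1beta at the 4 times, when 15.5%, 14.5%, 17.0% and 19.3% of all genes did, and 6, 11, 11 and 9 with TNF-alpha, beside 10.9%, 14.6%, 13.2% and 17.8%. At most 1 of the 24 fell in any of the 8 comparisons. Tnfaip3, which encodes the NF-kappaB brake A20, rose in all 8 comparisons, by 1.58 to 3.32 on the log2 scale, and Tnip1, which encodes an A20 partner, by 1.08 to 2.32. Of the 13 genes of caspases and the apoptosome 2, 3, 2 and 2 rose and 2, 3, 1 and 1 fell with IL-1beta at the 4 times. With TNF-alpha 2, 3, 3 and 3 rose and 2, 3, 3 and 2 fell, beside the shares of all genes called given above. Among these 13 Casp2 fell in 7 of the 8 comparisons. Of the 4 genes of necroptosis 1, 2, 3 and 1 rose with IL-1beta at 4, 12, 24 and 72 h and 1, 4, 2 and 3 with TNF-alpha, beside the shares of all genes just given, and Mlkl, the membrane-rupturing executioner, stood at 25.0 ± 4.29 CPM with TNF-alpha, 9.89 ± 1.70 with IL-1beta and 7.66 ± 1.26 in controls at 72 h (SD, n = 3).

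Of the 9 tested genes that encode pore formers and other BH3-only proteins 7 differed between the cytokines at 72 h, beside 39.8% of all genes. With IL-1beta 1 was higher and 6 were lower, and here too cytokine and dose cannot be told apart. The 3 called in most comparisons with control are given here. Bid, the link from caspase-8 to mitochondria, stood at 41.9 ± 1.95 CPM with TNF-alpha, 9.684 ± 1.201 with IL-1beta and 6.02 ± 0.48 in controls (SD, n = 3), and rose with both. Pmaip1, which encodes NOXA, a partner of MCL1, was 30.4 ± 1.25, 5.403 ± 0.508 and 9.19 ± 2.75 CPM in the same order, higher than control with TNF-alpha and lower with IL-1beta. Bmf was 6.58 ± 0.27, 21.7 ± 1.86 and 12.7 ± 1.02 CPM, with the opposite directions. All 3 differed between the cytokines at 72 h (log2 of IL-1beta over TNF-alpha -2.10, -2.48 and 1.72). The gene Tnf itself stood at 7.65 CPM with TNF-alpha and 1.79 with IL-1beta at 4 h, and at 0.02 CPM in controls. Xiap, a direct caspase inhibitor, was called at 72 h alone with IL-1beta (log2 -0.18) and at 24 and 72 h with TNF-alpha (-0.18 and -0.23), always lower. The 9 list genes not tested were Fasl, Naip1, Naip5, Naip6, Bcl2l10, Bcl2a1a, Bcl2a1b, Bcl2a1d and Hrk.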

How the data were processed

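The mRNA libraries of mouse cartilage engineered in culture came from RNA of a Norgen kit and the Ribo-Zero Gold library kit, per the labels' protocols. The tools in the submitters' processing notes are STAR, featureCounts, cutadapt and Trimmomatic, with the build mm10. For versions, strand setting and annotation: not given in the sources used here. Nor is it stated whether the replicates were separate cultures, and if not, p-values measure only the spread between these libraries. The deposited table holds raw whole-number counts per gene, made by the authors. It ends in 2199 nameless lines with a single field, which were left out. Because those lines are shifted, its last 2 columns were listed as another unit, with the deposited values taken as the counts of the named genes.

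Counts of 38 libraries were fitted in edgeR 4.0.16 (limma 3.58.1, R 4.3.3) by the quasi-likelihood F test, 1 coefficient per group, TMM factors 0.864 to 1.12, filterByExpr, common biological coefficient of variation 8.26%. Genes with Benjamini-Hochberg adjusted p under 0.05 over 18857 genes were called. All tests are 2-sided, and 3 libraries against 3 give fits of limited precision. The 10 genes and the pathway lists were chosen with earlier results of these data known. The lists, counts and likeness (Pearson r of log2 CPM, prior count 2, mean CPM of at least 1) follow fixed rules: from each list the up to 3 genes called in most of the 8 cytokine comparisons were named, with some of them given. The likeness search left out genes named Gm with a number, names ending in Rik and names holding -ps. The 4 promoters shown were chosen after the values were seen, as those of the genes with the widest changes.

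Alternatives were DESeq2 1.42.0, its size factors, library totals, no filter, the replicate letter as a block, the libraries compared alone, all 39 libraries, the controls at 12 h for TNF-alpha at 4 h, and leaving out each library. The effect by time over 12, 24 and 72 h was added after the data were seen. Python 3.11.15, pandas 2.3.3 and matplotlib 3.10.9 read tables and drew figures. The miRNA table was not used here.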

Additional observations from a re-analysis of the deposited data

Results flagged for a closer look

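For 6 of the 10 genes the IL-1beta effect differed between the 4 times by the test of treatment and time together, with adjusted p of 5.48e-08 for Bcl2, 3.43e-05 for Bcl2l1, 0.000218 for Mcl1, 0.000499 for Bcl2l11, 0.00163 for Cflar and 0.0206 for Birc2. For TNF-alpha the effect on Bcl2l1 differed (adjusted p = 0.0278). Bcl2l1 was higher with IL-1beta at 12 h (log2 0.52) and lower at 72 h (-0.24), while with TNF-alpha it was higher at both (0.37 and 0.63). The Birc2 call was lost over 12, 24 and 72 h alone, with library totals, without the filter and without control 4 h replicate b. The TNF-alpha call of Bcl2l1 was lost over 12, 24 and 72 h alone and without any of 7 single libraries.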

How the results depend on the processing

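Of 81 called results of the 10 genes, 60 kept their call when any library of the comparison was left out, and 63 kept it under every alternative with another scaling, filter, block, tool, set of libraries or set of times, apart from the fit with all 39 libraries. No called result of the 10 genes changed direction. With the column of control 0 h replicate b included, the genes called numbered 2848 (IL-1beta at 4 h), 2722 (IL-1beta at 12 h), 3029 (IL-1beta at 24 h), 4284 (IL-1beta at 72 h), 1584 (TNF-alpha at 4 h), 2331 (TNF-alpha at 12 h), 2038 (TNF-alpha at 24 h), 3330 (TNF-alpha at 72 h), 685 (IL-1beta against TNF-alpha at 4 h), 639 (IL-1beta against TNF-alpha at 12 h), 1865 (IL-1beta against TNF-alpha at 24 h), 4342 (IL-1beta against TNF-alpha at 72 h), 1745 (control 4 h over 0 h), 907 (control 24 h over 12 h), 3304 (control 72 h over 12 h), 2994 (IL-1beta effect by time) and 739 (TNF-alpha effect by time). Of the 10 genes those called were then 3 (IL-1beta at 4 h), 2 (IL-1beta at 12 h), 3 (IL-1beta at 24 h), 3 (TNF-alpha at 4 h), 2 (TNF-alpha at 12 h), 0 (IL-1beta against TNF-alpha at 4 h), 0 (IL-1beta against TNF-alpha at 12 h), 2 (IL-1beta against TNF-alpha at 24 h), 3 (IL-1beta against TNF-alpha at 72 h), 1 (control 4 h over 0 h), 0 (control 24 h over 12 h), 2 (control 72 h over 12 h), 2 (IL-1beta effect by time) and 0 (TNF-alpha effect by time). With DESeq2 size factors the count was 1 of the 10 (IL-1beta against TNF-alpha at 4 h). With library totals the count was 8 of the 10 (TNF-alpha at 72 h) and 2 of the 10 (TNF-alpha effect by time). Without the filter the count was 1 of the 10 (IL-1beta against TNF-alpha at 4 h), 2 of the 10 (IL-1beta against TNF-alpha at 12 h), 1 of the 10 (control 24 h over 12 h) and 3 of the 10 (TNF-alpha effect by time). With the replicate letter as a block the count was 1 of the 10 (IL-1beta against TNF-alpha at 4 h). With only the libraries compared the count was 1549 genes (IL-1beta against TNF-alpha at 4 h), 1 of the 10 (IL-1beta against TNF-alpha at 4 h), 908 genes (IL-1beta against TNF-alpha at 12 h), 0 of the 10 (IL-1beta against TNF-alpha at 12 h) and 3 of the 10 (IL-1beta against TNF-alpha at 24 h). Over 12, 24 and 72 h only the count was 1460 genes (TNF-alpha effect by time) and 0 of the 10 (TNF-alpha effect by time). With DESeq2 the count was 1 of the 10 (IL-1beta against TNF-alpha at 4 h). The block could be fitted for every comparison, the letters correlated at -0.11 to 0.08 with 0 of 24 over 0.1, and it ended the calls of Mcl1 at 12 h with IL-1beta, of Cflar between the cytokines at 4 h and of Bcl2l11 in control 72 h over 12 h. Leaving out 1 library at a time gave 1530 to 3160 genes (control 4 h over 0 h), 0 to 4 of the 10 (TNF-alpha effect by time), 1 to 2 of the 10 (IL-1beta against TNF-alpha at 4 h), 1431 to 2078 genes (IL-1beta against TNF-alpha at 4 h), 1 to 3 of the 10 (control 24 h over 12 h), 0 to 1 of the 10 (IL-1beta against TNF-alpha at 12 h), 3 to 4 of the 10 (IL-1beta against TNF-alpha at 24 h) and 5 to 9 of the 10 (IL-1beta at 24 h). Values that were not called and changed sign (log2) were, with library totals, Bcl2l11 -0.0042 (IL-1beta at 4 h), Casp8 -0.087 (IL-1beta at 4 h), Bcl2 0.0040 (TNF-alpha at 72 h), Fas -0.0089 (IL-1beta against TNF-alpha at 4 h), Ripk1 -0.023 (IL-1beta against TNF-alpha at 4 h), Mcl1 -0.0066 (IL-1beta against TNF-alpha at 24 h), Ripk1 -0.020 (IL-1beta against TNF-alpha at 72 h), Cflar 0.039 (control 24 h over 12 h), Bcl2l11 0.11 (control 24 h over 12 h), Ripk1 0.048 (control 24 h over 12 h) and Birc3 0.078 (control 72 h over 12 h); without the filter, Casp8 -0.0016 (IL-1beta at 4 h), Bcl2 0.0059 (TNF-alpha at 24 h), Bcl2l1 0.0016 (IL-1beta against TNF-alpha at 4 h), Birc2 0.044 (control 4 h over 0 h), Birc3 0.026 (control 4 h over 0 h) and Bcl2l11 0.0041 (control 24 h over 12 h); with all 39 libraries, Bcl2 0.0075 (TNF-alpha at 24 h), Mcl1 -0.0070 (IL-1beta against TNF-alpha at 24 h), Birc2 0.11 (control 4 h over 0 h), Birc3 0.045 (control 4 h over 0 h), Cflar 0.13 (control 4 h over 0 h) and Mcl1 0.36 (control 4 h over 0 h). With 1 library left out the ranges were -0.33 to 0.50 for Fas (control 4 h over 0 h), -0.037 to 0.086 for Casp8 (control 4 h over 0 h), -0.035 to 0.021 for Birc2 (control 4 h over 0 h), -0.065 to 0.015 for Birc3 (control 4 h over 0 h), -0.016 to 0.059 for Casp8 (IL-1beta at 4 h), -0.093 to 0.056 for Bcl2 (IL-1beta at 4 h), -0.062 to 0.056 for Bcl2l1 (IL-1beta against TNF-alpha at 4 h), -0.038 to 0.13 for Fas (IL-1beta against TNF-alpha at 4 h), -0.13 to 0.094 for Bcl2l11 (control 24 h over 12 h), -0.051 to 0.035 for Birc3 (control 72 h over 12 h), -0.018 to 0.076 for Ripk1 (IL-1beta at 12 h), -0.077 to 0.10 for Bcl2 (IL-1beta against TNF-alpha at 12 h), -0.051 to 0.013 for Bcl2 (TNF-alpha at 24 h), -0.078 to 0.15 for Bcl2l11 (TNF-alpha at 24 h), -0.053 to 0.044 for Mcl1 (IL-1beta against TNF-alpha at 24 h), -0.16 to 0.084 for Birc3 (IL-1beta against TNF-alpha at 24 h), -0.016 to 0.079 for Casp8 (IL-1beta at 72 h) and -0.012 to 0.21 for Bcl2l11 (TNF-alpha at 72 h). The cause was not tested. Library totals also moved the share of called genes that were higher by over 10 points: from 47.4% to 28.4% (IL-1beta at 4 h), from 50.7% to 40.5% (TNF-alpha at 4 h), from 49.3% to 67.1% (TNF-alpha at 72 h), from 46.1% to 27.2% (IL-1beta against TNF-alpha at 4 h), from 48.7% to 34.9% (IL-1beta against TNF-alpha at 72 h), from 47.2% to 77.1% (control 24 h over 12 h) and from 50.5% to 65.4% (control 72 h over 12 h).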
